A study of Mus musculus with 6 samples.

Results

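The heat shock chaperones described here are 10 genes of protein folding, Hspa1a, Hspa1b, Hspa8, Hsph1, Dnajb1, Hsp90aa1, Hspb1, Hspe1, Hspd1 and Bag3, taken by gene symbol from a table of 56980 genes. Of these, 7 are counted as stress-inducible (Hspa1a, Hspa1b, Hsph1, Dnajb1, Bag3, Hspb1 and Hsp90aa1) and 3 as constitutive (Hspa8, Hspe1 and Hspd1). The table gives the mRNA of tumor-associated macrophages (TAMs) as TPM, the number of transcripts of a gene, corrected for length, among 1000000 transcripts of the library. It holds 3 libraries from wild-type (WT) C57BL/6 mice and 3 from mice of the same background without the complement receptor C5aR (C5aR-/-), a gene absent from every cell of the animal and not from macrophages alone. All mice were females of 6 to 8 weeks that received ID8 cells, a mouse ovarian epithelial cancer line, in the peritoneal cavity, and tumors were taken after 2 months. TAMs were sorted as live CD45+CD11b+Ly6G-F4/80+ cells. The comparison of the genotypes asks how the TAM transcriptome differs when C5aR is missing.

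Heat shock proteins bind unfolded protein and help it to fold. HSP70 proteins (Hspa1a, Hspa1b and Hspa8) work with HSP40 partners such as Dnajb1 and with exchange factors such as Hsph1 and Bag3, HSP90 (Hsp90aa1) matures kinases and receptors, HSP27 (Hspb1) holds unfolded protein, and Hspd1 with Hspe1 forms the folding chamber of mitochondria. Under heat or oxidants, the factor HSF1 binds heat shock elements, inverted repeats of the unit GAA, and raises the inducible genes within minutes, whereas the constitutive genes serve unstressed cells.

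The labels were checked first. C5ar1, the gene of C5aR, was between 16.2 and 86.5 TPM in WT and between 0.05 and 0.38 TPM in C5aR-/- libraries. The sort marker Adgre1 (F4/80) was present in every library, at 25.4 to 114 TPM in WT and 27.9 to 91.1 TPM in C5aR-/-, and so was Itgam (CD11b), at 49.2 to 273 TPM and 35.6 to 105 TPM. The summed TPM of 12 macrophage genes ranged from 2683 to 9392 in WT and from 2671 to 9320 in C5aR-/-, and that of 8 epithelial genes from 1882 to 2079 and from 1807 to 2315. The epithelial sum came mostly from the keratins Krt8, Krt18 and Krt19, with Krt8 at 455 to 758 TPM. Cldn3 was at 38.5 to 138 TPM, Epcam at 2.09 to 6.33 TPM and Cdh1 at 4.16 to 5.56 TPM. Every library thus held keratin RNA, and which cells gave it was not tested. The summed levels of 5 neutrophil genes (606 to 2269 TPM against 26.4 to 375 TPM) and of 7 mesothelial genes (1079 to 1465 TPM against 770 to 1071 TPM) were higher in WT without overlap, and 4 of 5 mast cell genes were lower in C5aR-/- at an unadjusted p under 0.05 with a 2-fold difference (2.84% of all tested genes), while the fifth, Kit, was higher by the same rule (1.13 on the log2 scale, beside 2.13% of all). Of the 7 mesothelial genes 6 were lower in C5aR-/- and Msln was higher. Msln was at 135 to 180 TPM in WT and at 268 to 288 TPM in C5aR-/- (0.88, unadjusted p 0.000587 by limma). The summed TPM of 4 erythroid genes was 1362, 3901 and 208 in WT 1, 2 and 3 and 16183, 210 and 690 in C5aR-/- 1, 2 and 3. C5aR-/- 1 thus stood apart, with 1.62% of its TPM in these genes. The part of these cell types in the chaperone levels was not tested. In such bulk samples fewer cells of a type and less RNA per cell cannot be told apart.

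The inducible HSP70 genes separated the libraries most, and they did so within WT. Hspa1b was at 90.4, 3263 and 2785 TPM in WT 1, 2 and 3 and at 23.7, 216 and 74.3 TPM in C5aR-/- 1, 2 and 3. Hspa1a was at 38.9, 1067 and 839 TPM in WT and at 17.5, 92.0 and 17.2 TPM in C5aR-/-. WT 2 and WT 3 stood above every other library for both genes, and WT 1 lay inside the C5aR-/- range. Hspa1b was 36.1-fold higher in WT 2 than in WT 1 and 30.8-fold higher in WT 3 than in WT 1. Among all listed genes Hspa1b ranked 25 by TPM in WT 2 and 30 in WT 3, but 1554 in WT 1 and 609 to 5928 in C5aR-/-. With both genes summed, the levels were 129, 4329 and 3624 TPM in WT and 41.2, 308 and 91.5 TPM in C5aR-/-, a 105-fold span over the 6 libraries.

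The difference of Hspa1b, C5aR-/- minus WT, was -3.67 on the log2(TPM + 1) scale (SE 1.48, n = 3 libraries per group), with an unadjusted p of 0.0438 and a Benjamini-Hochberg adjusted p of 0.332 by limma. That of Hspa1a was -3.39 (SE 1.33, unadjusted p 0.0396, adjusted p 0.322 by limma). Both missed the adjusted threshold of 0.05, and the groups overlapped through WT 1. Without WT 2 the differences were -2.77 for Hspa1b and -2.54 for Hspa1a, and without WT 1 they were -5.35 and -4.91.

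**Figure D1:**
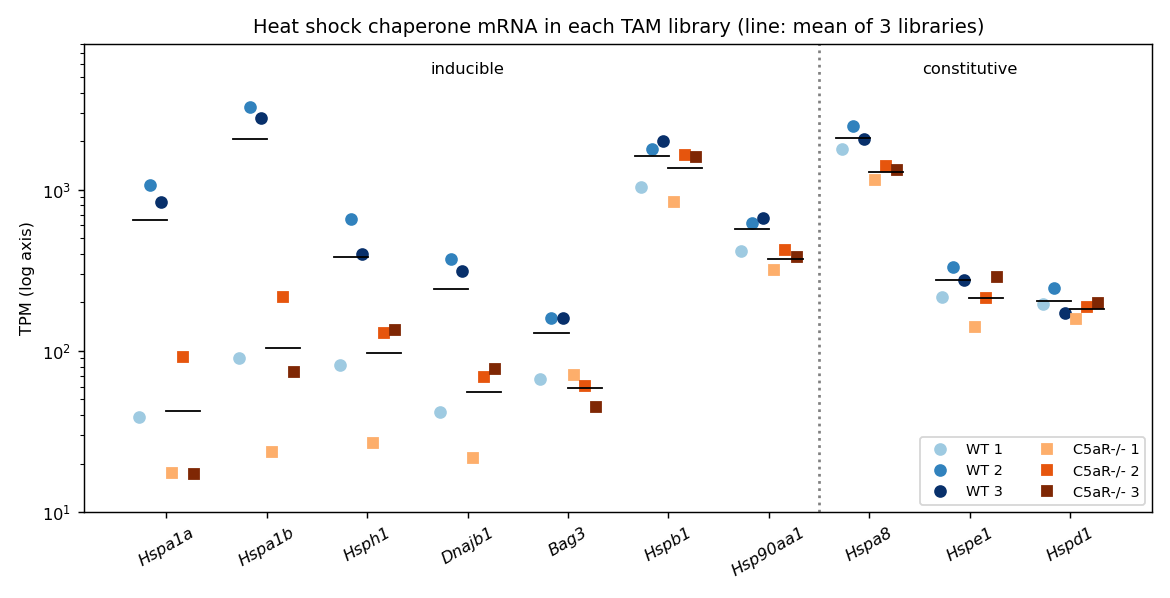
Level of each of the 10 chaperone mRNAs in TPM (log axis) in the 3 WT libraries (circles, blue) and the 3 C5aR-/- libraries (squares, orange), with a line at the mean of each group of 3. WT 2 and WT 3 stand above all other libraries for Hspa1a, Hspa1b, Hsph1, Dnajb1 and Bag3, while WT 1 lies among the C5aR-/- libraries, and the groups do not overlap for Hspa8 alone.

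The 2 HSP70 genes lie 9951 bases apart on chromosome 17, Hspa1b at chr17:34956436-34959238 and Hspa1a at chr17:34969190-34972156, both on the minus strand (GRCm38, the assembly of build mm10). Of the 150-base stretches of the Hspa1a transcript, 38.1% occur unchanged in Hspa1b, and of those of Hspa1b 40.5% occur in Hspa1a. A read of that length from such a stretch cannot be placed by itself, though the other read of its pair may place it. The split between the 2 genes is therefore less certain, and their sum is the firmer value. The ratio of Hspa1b to Hspa1a was 2.32, 3.06 and 3.32 in WT and 1.35, 2.35 and 4.32 in C5aR-/-.

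Their promoters are shown because both genes were high in the same libraries. The 250 bases before each start (RefSeq, GRCm38.p6, minus strand, chr17:34972157-34972406 for Hspa1a and chr17:34959239-34959488 for Hspa1b) are given 5′ to 3′, with matches to the 2-unit element GAANNTTC in capitals.
Hspa1a: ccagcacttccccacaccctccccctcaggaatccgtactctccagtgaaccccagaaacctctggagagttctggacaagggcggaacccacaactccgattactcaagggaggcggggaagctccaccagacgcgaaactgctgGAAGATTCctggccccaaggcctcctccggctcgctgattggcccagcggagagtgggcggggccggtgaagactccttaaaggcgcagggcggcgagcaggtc
Hspa1b: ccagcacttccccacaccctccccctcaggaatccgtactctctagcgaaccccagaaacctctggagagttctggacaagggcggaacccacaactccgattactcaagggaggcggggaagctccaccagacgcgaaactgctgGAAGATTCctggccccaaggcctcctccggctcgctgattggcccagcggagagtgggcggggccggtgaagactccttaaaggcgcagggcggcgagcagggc
The sequences were 98.8% identical, with 3 differences from Hspa1a to Hspa1b (C44T, T47C and T249G, counted from 1 at the 5′ end). In both, the element begins 104 bases before the start.

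Heat shock elements were searched on both strands as 2 units (GAANNTTC or TTCNNGAA) and as 3 units (either of these followed, after 2 free bases, by 1 more unit in the opposite direction), the 3-unit matches holding 2-unit ones, in RefSeq windows of 250 bases before to 50 bases after the start. Among all 32851 windows 15.1% held 2 units and 0.603% held 3 units. By gene the shares were 17.0% and 0.662%. A window was found for 8 of the 10 chaperone genes, all but Hspa8 and Hsp90aa1. Of these 8, 7 held 2 units and 3 held 3 units. The match is a description of letters and not of binding.

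**Figure D2:**
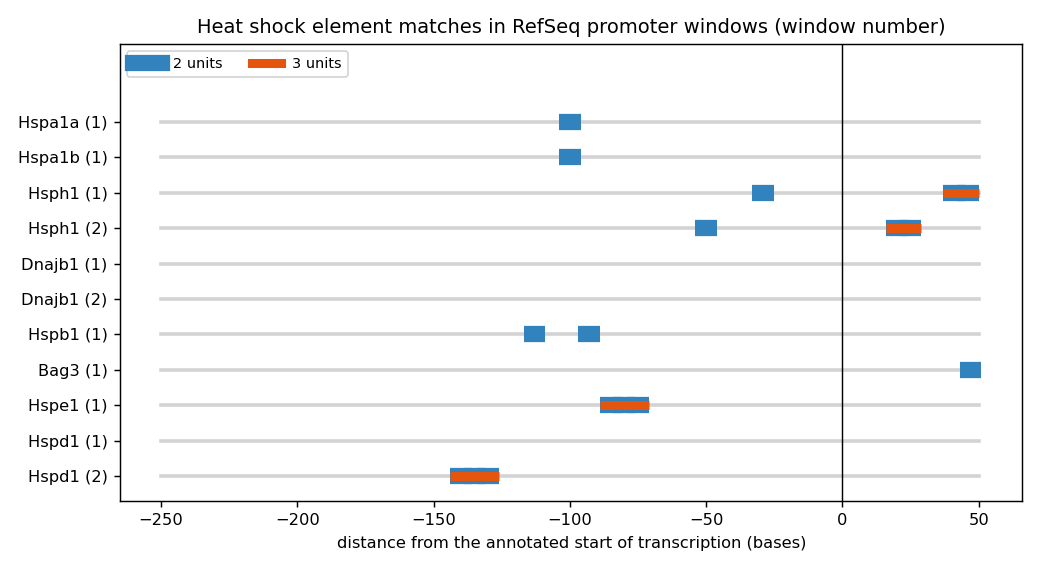
Matches to heat shock elements of 2 units (blue) and 3 units (orange) in the RefSeq promoter windows of 8 chaperone genes, by distance in bases from the annotated start (0), with the window number after the gene. Hspa1a and Hspa1b carry 1 match at the same distance, Hsph1, Hspe1 and Hspd1 carry the 3-unit form, and the windows of Dnajb1 carry no match.

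Among the HSP70 partners WT 2 and WT 3 were again the highest libraries. Dnajb1, an HSP40 that delivers substrates to HSP70 and stimulates its ATP hydrolysis, was at 42.0, 371 and 311 TPM in WT and at 21.8, 68.5 and 77.0 TPM in C5aR-/-. Hsph1 (HSP110), a nucleotide exchange factor, was at 82.0, 658 and 400 TPM in WT and at 26.8, 130 and 134 TPM in C5aR-/-. Both were high in WT 2 and WT 3 alone, and WT 1 fell between the lowest and the second C5aR-/- library. The difference was -1.78 for Dnajb1 (SE 0.89, unadjusted p 0.0882 by limma) and -1.82 for Hsph1 (unadjusted p 0.0878 by limma), and neither passed. Without WT 1 both were called, at -2.78 for Dnajb1 (unadjusted p 0.00297 by limma) and -2.70 for Hsph1 (unadjusted p 0.0127 by limma), and without C5aR-/- 1 they were -1.22 and -1.07 and not called.

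Hsph1 is shown for its 3-unit element, which lies after the RefSeq start, inside an annotated exon and UTR at chr5:149636288-149636300. The 23 bases around it (minus strand, chr5:149636287-149636309) are given with the element in capitals.
Hsph1: tgctgcagaTTCTGGAAAGTTCt
The 2 windows of Hsph1 differ in their start, and the element begins at base 37 after one start and at base 16 after the other.

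Bag3, which links HSP70 to small heat shock proteins and to autophagy, was at 66.7, 160 and 161 TPM in WT and at 71.4, 60.3 and 45.0 TPM in C5aR-/-. WT 2 and WT 3 were again the high libraries, each over 2-fold above WT 1, and WT 1 lay below C5aR-/- 1. The difference was -1.04 (SE 0.37, unadjusted p 0.0278, adjusted p 0.29 by limma). A 2-unit element lies at bases 43 to 50 after the Bag3 start, in exon and UTR at chr7:128523625-128523632, and it is shown with the bases before it (plus strand).
Bag3: atgggaccaGAAGTTTC
In contrast to Hspa1b, Bag3 was not lowest in C5aR-/- 1, where it was the highest of its group.

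Hspb1 (HSP27) ranked between 60 and 166 by TPM in every library, at 1042, 1780 and 2009 TPM in WT and at 835, 1639 and 1604 TPM in C5aR-/-. The low libraries were WT 1 and C5aR-/- 1, and the groups overlapped. The difference was -0.25 (unadjusted p 0.506 by limma) and became 0.065 without C5aR-/- 1. The 60 bases that hold its 2 elements, at 117 and 97 bases before the start, are shown (plus strand, chr5:135887789-135887848) because this abundant mRNA has a pair of separate matches upstream.
Hspb1: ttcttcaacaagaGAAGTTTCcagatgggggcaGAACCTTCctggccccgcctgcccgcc
Of the 150-base stretches of Hspb1, 39.1% also occur in the pseudogene Hsp25-ps1.

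Hsp90aa1, the inducible HSP90, was at 415, 619 and 666 TPM in WT and at 318, 420 and 382 TPM in C5aR-/-. WT 1 was just below the highest C5aR-/- library. The difference was -0.58 with an unadjusted p of 0.0343 and an adjusted p of 0.31 by limma, and it stayed under 2-fold. Its constitutive counterpart Hsp90ab1 was at 1706, 1936 and 1724 TPM in WT and at 1435, 1591 and 2001 TPM in C5aR-/-, with a difference of -0.11 (unadjusted p 0.59 by limma). The ratio of Hsp90aa1 to Hsp90ab1 was 0.243, 0.320 and 0.386 in WT and 0.222, 0.264 and 0.191 in C5aR-/-. The log2 difference of the pair within a library was lower in C5aR-/- than in WT (-0.47), with an exact two-sided permutation p of 0.2 where 0.1 is the smallest that 3 against 3 libraries allow. Of the 150-base stretches of Hsp90aa1, 23.6% also occur in the pseudogene Gm12346.

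Hspa8 (HSC70), the constitutive HSP70, was the single chaperone of the 10 whose groups did not overlap. It was at 1788, 2467 and 2054 TPM in WT and at 1146, 1392 and 1323 TPM in C5aR-/-. The lowest WT library was thus above the highest C5aR-/- library, and WT 1 was 1.39-fold above the C5aR-/- mean. The difference was -0.70 (SE 0.19, unadjusted p 0.00811, adjusted p 0.195 by limma), and the exact two-sided permutation p was 0.1, the smallest possible. The difference held between -0.81 and -0.58 when any 1 library was left out. Pseudogenes share stretches with Hspa8 too, led by Gm15459 at 20.0%.

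The mitochondrial pair held the chaperone with the narrowest span over the libraries. That was Hspd1 (HSP60), 1.55-fold between its highest and lowest library. Hspd1 was at 196, 245 and 171 TPM in WT and at 158, 187 and 200 TPM in C5aR-/-, and Hspe1 (HSP10), its lid, was at 216, 333 and 275 TPM in WT and at 140, 213 and 288 TPM in C5aR-/-. The groups overlapped for both. The differences were -0.16 for Hspd1 (95% interval -0.58 to 0.25, unadjusted p 0.386 by limma) and -0.40 for Hspe1 (unadjusted p 0.214 by limma). The ratio of Hspe1 to Hspd1 was 1.10, 1.36 and 1.61 in WT and 0.889, 1.14 and 1.44 in C5aR-/-.

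These genes are transcribed away from each other on chromosome 1 and overlap by 112 bases in the annotation. They hold 3-unit elements at the same bases, chr1:55088059-55088076, before the start of Hspe1 and, read on the other strand, before one start of Hspd1 (inside an exon of Hspd1 in the annotation). The 60 bases around them are given on the Hspe1 strand (plus, chr1:55088038-55088097). They are shown because these genes, counted here as constitutive, carry the longest run of units among the 8.
Hspe1: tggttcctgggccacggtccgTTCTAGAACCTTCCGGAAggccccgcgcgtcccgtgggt
A 3-unit element was present both at Hsph1, with a 24.5-fold span over the libraries, and at Hspd1, with a 1.55-fold span. Over the 6 libraries the Pearson's r with Hsph1 was 0.91 for Hspe1 and 0.67 for Hspd1.

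Read together, 10 of 10 chaperones had a difference below 0, as did 55.5% of the 14776 tested genes. At an unadjusted p under 0.05 with a 2-fold difference, Bag3, Hspa1a and Hspa1b were called lower in C5aR-/-, 3 of 10 beside 2.84% of all tested genes, and none was called higher, beside 2.13% (4.96% in either direction). At an unadjusted p under 0.05 with any fold Hspa8 and Hsp90aa1 joined them, 5 of 10 beside 8.37% of all, and none was higher, beside 6.06%. Groups did not overlap for 1 of 10, beside 12.5% of all genes lower and 8.84% higher without overlap. At an adjusted p under 0.05 limma called 0 of the 10 and 0.0% of all genes, whereas 733 were called before adjustment. The median difference of the 10 was -0.87 and that of all genes -0.05. These counts are no test of the 10 as a group. Hspa1a and Hspa1b share stretches of sequence and had a Pearson's r of 0.98 over the 6 libraries, so their calls are not separate. The chaperones were also chosen with earlier results of these data known.

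The count of calls changed when 1 library was left out, and such a fit also has fewer samples. Without WT 2, WT 3 or C5aR-/- 3 the count of called chaperones was 0, without C5aR-/- 1 it was 1, without C5aR-/- 2 it was 2 and without WT 1 it was 5, with Dnajb1 and Hsph1 added. With no filter on low TPM it was 1 (Bag3). Without C5aR-/- 3 the difference of Hspa1b was -3.68 with an SE of 1.77, beside -3.67 and 1.48 with all 6 libraries. Those of Hspa1a and Bag3 were then -2.99 and -0.86.

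**Figure D3:**
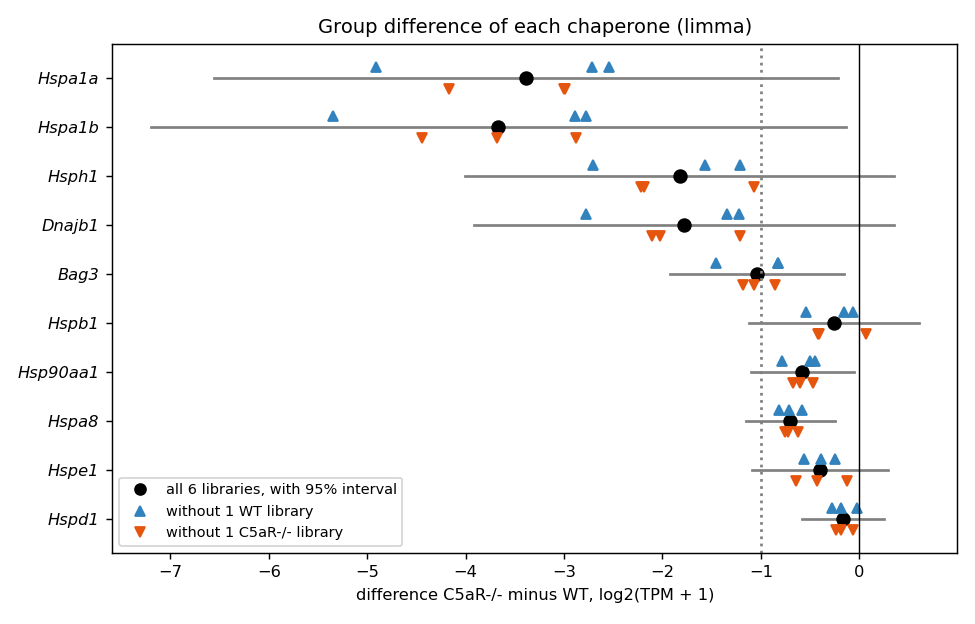
Difference of each chaperone, C5aR-/- minus WT, in log2(TPM + 1) from limma, with its 95% interval (black point and grey line) and the value after leaving out each WT (blue) or C5aR-/- (orange) library; the dotted line marks a 2-fold lower level. The differences of Hspa1a and Hspa1b widen without 1 WT library, to -4.91 and -5.35, and the interval of Hspa8 lies below 0.

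Of the 10 chaperones, 7 were highest in WT 2 and 3 in WT 3, 8 were lowest in C5aR-/- 1 and 2 in C5aR-/- 3, and for 9 of 10 WT 1 lay inside the C5aR-/- range. Their summed TPM was 3976, 10962 and 9671 in WT and 2759, 4418 and 4145 in C5aR-/-. Hspa1a and Hspa1b made up 39.5% and 37.5% of this sum in WT 2 and WT 3, 3.25% in WT 1 and 1.49% to 6.97% in C5aR-/-. Hspa8 was the leading chaperone of WT 1, with 45.0% of the sum.

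Inducible and constitutive genes were set against each other within each library, which takes out what both share. The mean log2(TPM + 1) of the 7 inducible less that of the 3 constitutive genes was -1.81, 0.38 and 0.55 in WT and -2.16, -1.04 and -1.80 in C5aR-/-. WT 2 and WT 3 alone were above 0, and WT 1 lay next to C5aR-/- 3. The ratio of summed Hspa1a and Hspa1b to Hspa8 was 0.0723, 1.75 and 1.76 in WT and 0.0360, 0.221 and 0.0691 in C5aR-/-. Without Hspa1a and Hspa1b the inducible minus constitutive value was -1.41, -0.14 and 0.08 in WT and -1.50, -0.88 and -1.11 in C5aR-/-, with WT 2 and WT 3 again above the rest.

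**Figure D4:**
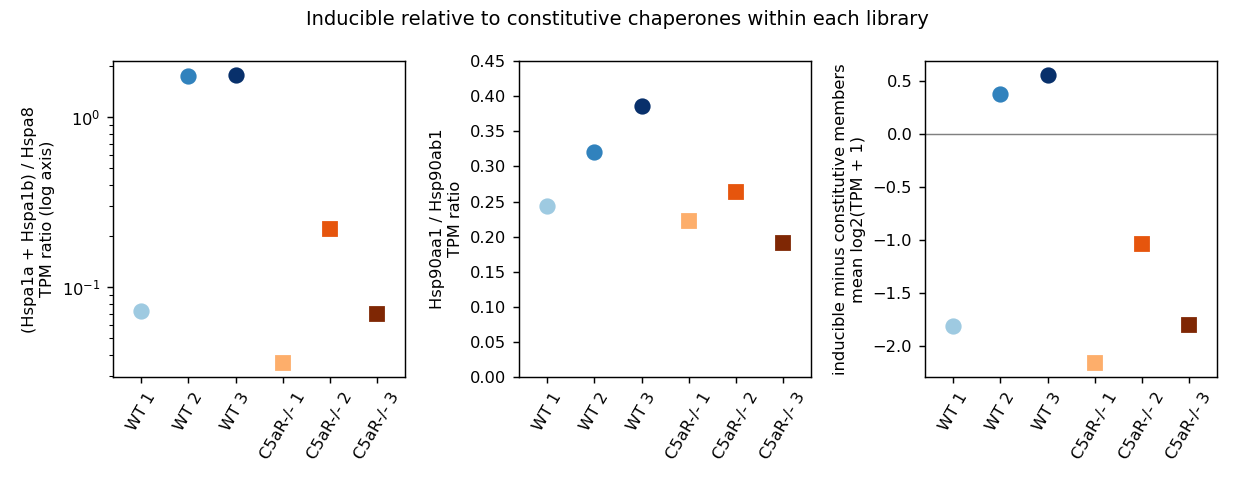
Ratio of summed Hspa1a and Hspa1b to Hspa8 in TPM (left, log axis), ratio of Hsp90aa1 to Hsp90ab1 in TPM (middle) and mean log2(TPM + 1) of the inducible less that of the constitutive chaperones (right), for each of the 3 WT (circles) and 3 C5aR-/- libraries (squares). WT 2 and WT 3 are the highest in all 3 panels, at 1.75 and 1.76 on the left, and WT 1 lies within or beside the C5aR-/- libraries.

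The mRNA of the factor HSF1 did not follow this order, while its protein and its activity were not measured. Hsf1 was at 52.2, 55.0 and 55.6 TPM in WT and at 47.3, 45.9 and 65.3 TPM in C5aR-/-, with a difference of -0.06 (95% interval -0.45 to 0.34, unadjusted p 0.748 by limma). Hsf2, a related factor, was at 13.2 to 16.3 TPM in WT and at 12.5 to 14.7 TPM in C5aR-/- (-0.10, unadjusted p 0.563 by limma). Of 6 regulators of this response 5 were tested and none was called with a 2-fold difference. Hsf4 had the largest difference, 0.65 (unadjusted p 0.048 by limma), at 3.03 to 4.71 TPM in WT and 5.18 to 9.13 TPM in C5aR-/-.

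Among the 80 tested genes of 8 other lists, these regulators included, Dnaja1 and Cryab were called lower, 2 of 80 beside the 2.84% of all genes, and none was called higher. Dnaja1, an HSP40 partner of HSP70, was at 358, 466 and 581 TPM in WT and at 232, 240 and 197 TPM in C5aR-/-, without overlap (-1.04, SE 0.20, unadjusted p 0.00146, adjusted p 0.113 by limma). Cryab, a small heat shock protein, was at 85.2, 361 and 345 TPM in WT and at 130, 73.2 and 29.0 TPM in C5aR-/- (-1.74, unadjusted p 0.0477, adjusted p 0.341 by limma). Cryab thus shared the high WT 2 and WT 3 of Hspa1a and Hspa1b, and Dnaja1 differed between all libraries of the groups.

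Both belong to 13 other stress-inducible cytosolic genes, of which 9 were lower and 4 higher with a median of -0.30. Of the 18 co-chaperones of HSP70 and HSP90 none was called with a 2-fold difference, and the largest difference was that of Bag2, an inhibitor of the ubiquitin ligase CHIP, at 5.22 to 7.92 TPM in WT and 10.1 to 14.4 TPM in C5aR-/- (0.79, unadjusted p 0.01, adjusted p 0.21 by limma). Of 4 tested small heat shock proteins none was called, with Hspb2 at -0.61 (unadjusted p 0.141 by limma). The 8 subunits of the cytosolic chaperonin TRiC were higher in 7 of 8 with none called, led by Cct6a at 0.32, and of 6 prefoldin subunits none was called with a 2-fold difference, with Pfdn2 at -0.45 (unadjusted p 0.0859 by limma).

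The other mitochondrial chaperones and proteases, like Hspd1 and Hspe1, held none called among 10 tested genes. Hspa9, the mitochondrial HSP70, was at 132 to 158 TPM in WT and at 148 to 195 TPM in C5aR-/- (0.19, unadjusted p 0.239 by limma), and the protease Lonp1 had the largest difference, 0.30.

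The chaperones of the endoplasmic reticulum (ER) took another order of libraries. Hspa5 (BiP), the HSP70 of the ER, was at 2188, 1500 and 1225 TPM in WT and at 840, 1041 and 889 TPM in C5aR-/-, and Hsp90b1 (GRP94) was at 742, 536 and 442 TPM and at 395, 381 and 318 TPM. Both were highest in WT 1, the WT library with the lowest Hspa1b, and their groups did not overlap. The differences were -0.79 for Hspa5 (SE 0.24, unadjusted p 0.0149, adjusted p 0.233 by limma) and -0.63 for Hsp90b1 (unadjusted p 0.0243, adjusted p 0.277 by limma).

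Of the 16 ER genes 14 were lower, 7 at an unadjusted p under 0.05 with any fold and none with a 2-fold difference, and 8 did not overlap, which is to be set beside the 8.37% and 12.5% of all genes. The largest difference was that of the disulfide isomerase Pdia4 (-0.80, unadjusted p 0.00301, adjusted p 0.142 by limma). None of the 13 ER genes with a promoter window held a 2-unit heat shock element. Thus Hspa8, Dnaja1 and Hspa5 separated the genotypes in all 6 libraries, but Hspa5 did not share the high WT 2 and WT 3 of Hspa1a and Hspa1b.

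**Figure D5:**
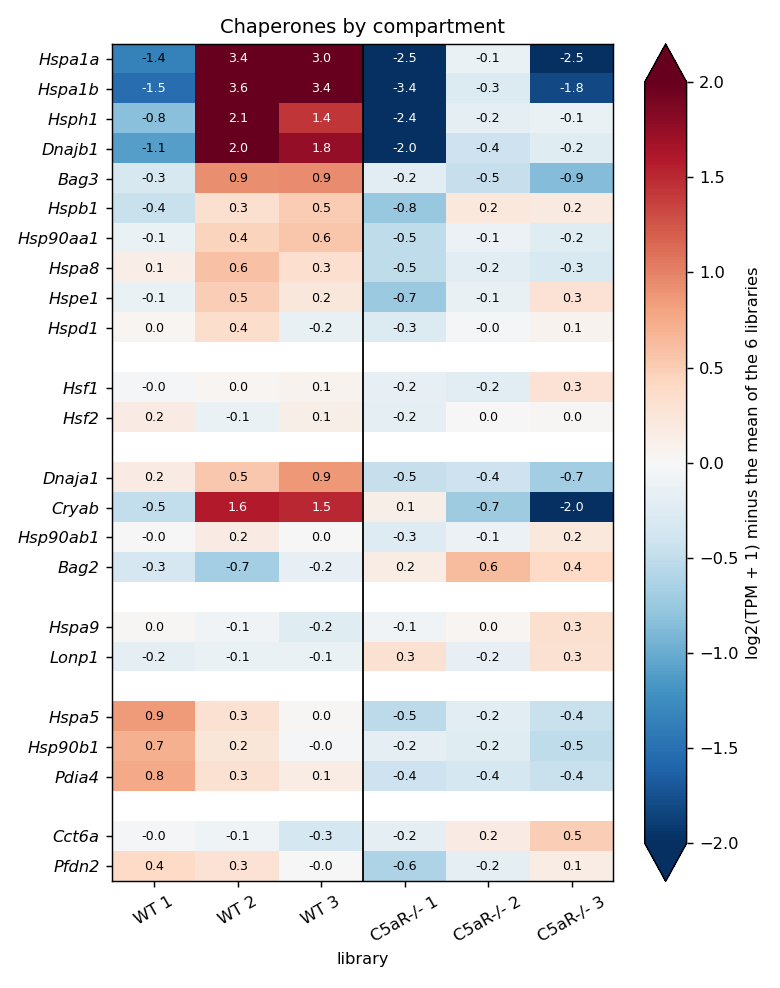
Level of the 10 chaperones and of named genes of other compartments in each library, as log2(TPM + 1) less the mean of the 6 libraries (colour limited to 2 in either direction, value in each cell), with a line between the 3 WT and the 3 C5aR-/- libraries. The inducible genes and Cryab are high in WT 2 and WT 3, and Hspb1 is also high in C5aR-/- 2 and 3. Hspa5, Hsp90b1 and Pdia4 are high in WT 1, and Hsf1 and Hsf2 stay within 0.4 of their mean.

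Immediate early genes, which rise when tissue is dissociated, were measured beside the chaperones as signs of handling. The summed TPM of 17 such genes was 11841, 7206 and 8788 in WT and 10788, 13666 and 5941 in C5aR-/-. The sum was lower in WT 2 and WT 3 than in WT 1, but not every gene followed it. Egr1 was at 946, 1049 and 1028 TPM and Jun at 1360, 1053 and 2232 TPM in WT, while the others were highest in WT 1 among the WT libraries. Of the 17 genes Nr4a1 alone was called, lower in C5aR-/-, beside 2.84% of all tested genes called lower. Nr4a1 was at 349, 274 and 227 TPM in WT and at 89.3, 164 and 34.5 TPM in C5aR-/- (-1.79, unadjusted p 0.0124, adjusted p 0.224 by limma). The summed macrophage level was 9392, 3803 and 2683 TPM in WT and 9320, 5339 and 2671 TPM in C5aR-/-. Beside it, Hspa1b was at 90.4, 3263 and 2785 TPM in WT and at 23.7, 216 and 74.3 TPM in C5aR-/-. Over the 6 libraries the 12 macrophage genes had a Pearson's r of -0.89 (Fcgr1) to -0.24 (Itgam) with the inducible mean. Genes of other cell types had r as large with the other sign. The r was 0.36 (Retnlg) to 0.89 (Cxcr2) for 4 tested neutrophil genes. For 5 tested fibroblast genes it was 0.02 (Col1a1) to 0.89 (Col1a2). The part of cell make-up and handling in the chaperone levels was not tested.

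The 8 genes most like the mean of the 7 inducible chaperones over the 6 libraries, of 11182 genes searched, were Gtpbp8, Gm8696, Zfp97, Wdsub1, LTO1, Ndufa3, 3110009E18Rik and Gm21092, with Pearson's r from 0.983 to 0.996. At a looser limit, 208 genes reached an r of 0.9 over these 6 libraries. Most of these genes moved little, such as Gtpbp8 at 6.04, 9.40 and 9.71 TPM in WT and 4.99, 6.78 and 6.11 TPM in C5aR-/-. Of the 8, Gm8696 differed most between libraries, at 1.99, 59.8 and 33.1 TPM in WT and at 0.00, 3.85 and 1.18 TPM in C5aR-/-. It is a processed pseudogene at chr17:34954328-34954712, on the strand of Hspa1b and 1723 bases beyond the end of that gene, and it shares no 150-base stretch with Hspa1b. Its difference was -3.06 (SE 1.16, unadjusted p 0.0347, adjusted p 0.31 by limma).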

How the data were processed

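Poly(A) RNA of sorted TAMs was sequenced as 150-base read pairs from libraries whose dUTP-labelled second strand was digested, which keeps the strand. The authors deposited 1 table of TPM for 6 libraries and 2 group means, which were not used. The submitters' processing notes name fastp, HISAT2, StringTie, RSEM, DESeq2 and mm10 with no role. By the study's methods the authors trimmed reads with fastp, mapped them with HISAT2 and estimated levels as FPKM with StringTie. Which tool made the deposited TPM, and whether strand was used in counting, is not given in the sources used here. TPM keeps no read depth, so no counting interval can be given. Symbols came from GENCODE M21 tables (52073 of 56980 IDs matched). The 14776 genes that reached a TPM of 1 in 3 or more libraries were compared as log2(TPM + 1) with limma 3.58.1 in R 4.3.3 (empirical Bayes with trend, Benjamini-Hochberg over all genes). Fold changes on that scale understate those of low genes. In simulated data from these libraries 143 of 200 genes changed by 2 on the log2 scale and 21 of 200 changed by 1 passed an adjusted p of 0.05. These genes were picked at random, each with its own spread. The shares therefore do not hold for Hspa1a and Hspa1b, whose log2 SD within WT was 2.64 and 2.91. The chaperones and lists were chosen with earlier results of these data known. Named were the 10 chaperones, Hsf1, Hsf2, Hsp90ab1, Hspa9, Hspa5, Hsp90b1, C5ar1, Adgre1 and Itgam, in each list at most 4 genes called at an unadjusted p with fold 2, or else the largest difference, and the 8 genes most like the inducible mean with a mean TPM of at least 5. Promoter windows are from RefSeq (GRCm38.p6), and gene positions and transcripts from GENCODE M21. The study's figure legends give 4 mice per group for the sequencing, whereas the deposited table holds 3 libraries per group. The labels do not say that each library is a separate mouse, so p-values measure the spread between these libraries. Another pseudocount, filters, scalings, a replicate block, eBayes without trend and leaving out each library were tried.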

Additional observations from a re-analysis of the deposited data

How the results depend on the processing

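Of 130 differences of the 10 chaperones under 13 alternatives, 1 changed sign, that of Hspb1, which ranged from -0.54 to 0.065 on leaving out 1 library and was above 0 without C5aR-/- 1. Chaperones called at an unadjusted p with fold 2 numbered 3. They were 1 with no filter, 2 with median-of-ratios scaling (Bag3 lost, at -0.99), 2 with eBayes without trend (Hspa1b lost, unadjusted p 0.0502 by limma) and 5 with the replicate block (Dnajb1 and Hsph1 gained, unadjusted p 0.00262 and 0.000341 by limma), and 0 to 5 on leaving out 1 library. The other chaperone genes called numbered 2, and 1 with no filter, median-of-ratios scaling, the replicate block or eBayes without trend, and 0 to 3 on leaving out 1 library. Over all genes 733 were called, 475 with a TPM of at least 5, and 518 to 1220 on leaving out 1 library. At an adjusted p 0 genes were called, 2 with eBayes without trend and 0 to 349 on leaving out 1 library, the most without C5aR-/- 1, and the chaperones called stayed at 0. The inducible minus constitutive difference of -1.37 ranged from -2.13 to -0.95 on leaving out 1 library, and that of Hsp90aa1 minus Hsp90ab1 from -0.65 to -0.32. Same-numbered libraries of the groups deviated together with r of 0.19, -0.01 and 0.27, and libraries of different numbers with r from -0.23 to 0.09. The labels do not say that the numbers pair the libraries, so the main fit has no block. With the replicate block the SE of Hsph1 went from 0.91 to 0.20. Whether the numbers mark pairs was not tested. The cause of these changes was not tested, beyond fewer genes under a stricter filter and fewer samples without a library.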

Other observations

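The wider gene families around the 10 chaperones were looked at after their values were seen, by symbol. Of 45 listed HSP40 genes (symbols starting with Dnaj) 39 were tested, 26 lower and 13 higher in C5aR-/-, with a median of -0.11. Dnaja2, a constitutive HSP40, was at 110, 97.6 and 77.5 TPM in WT and at 86.5, 311 and 495 TPM in C5aR-/- (1.33, SE 0.60, unadjusted p 0.064 by limma). It was thus high in C5aR-/- 2 and 3 only. It lies on chromosome 8 at chr8:85537633-85555344, and Dnajb1, at chr8:83608193-83612653 on the same chromosome, did not share this order. Of 6 Bag genes, Bag2 and Bag5 were higher in C5aR-/- without overlap, as were 8.84% of all tested genes (Bag5 19.8 to 24.4 TPM in WT and 25.4 to 28.2 TPM in C5aR-/-, unadjusted p 0.0941 by limma). Bag3 was the single one called lower with a 2-fold difference, beside 2.84% of all tested genes.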
